A study of Mus musculus with 8 samples.

Results

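The 36 genes described here encode proteins that build the acrosome of the spermatid or that carry sperm through the coats of the egg to fusion. The acrosome is a cap-shaped secretory granule derived from the Golgi apparatus that spreads over the nucleus of the spermatid, the haploid germ cell that turns into a spermatozoon. Its matrix holds hydrolases and binding proteins, its inner membrane stays fixed to the nucleus, and its release at the egg exposes the proteins that join the membranes of the gametes. Failure of these steps is known to give sperm with round heads and no acrosome, sperm that do not pass the zona pellucida, the coat of the egg, or sperm that reach the egg but do not fuse. Most of these genes are switched on in late pachytene spermatocytes or in round spermatids, and CREM, MYB-family and RFX factors are transcription regulators known from those stages. The members were chosen by name from known function, and each was measured by the probe set annotated to its symbol alone. All 36 were measured among the 19938 genes of the arrays, each by exactly 1 probe set.

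RNA came from whole testes of Ing2+/+ and Ing2-/- littermates aged 2 to 3 months and was hybridized to Mouse Gene ST arrays, 3 arrays for Ing2+/+ and 5 for Ing2-/-, 1 mouse per array. ING2 is a chromatin reader that binds methylated lysine of histone H3 and works in a histone deacetylase complex. The second exon of Ing2 was removed in founders with the EIIa-Cre transgene, which was then bred out, so that an Ing2-/- mouse inherits the deletion in all its cells. The line was made in embryonic stem cells of 129/Sv origin and bred with C57BL/6J. The comparison asks how the loss of ING2 alters the transcripts of the testis. Levels are deposited log2 values, normalized by RMA (robust multi-array average), and a difference is Ing2-/- minus Ing2+/+ on that scale. Calls of higher or lower were made by limma, a linear model per probe set that borrows variance across the array, at a p under 0.05 after Benjamini-Hochberg adjustment, for which all 35557 probe sets were counted.

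Ing2 itself was 7.43, 7.60 and 7.34 in the Ing2+/+ mice and 5.06, 5.64, 5.21, 5.29 and 5.25 in the Ing2-/- mice, which separates the genotypes without overlap, at −2.16 (SE 0.13) on the log2 scale (adjusted p = 3.95e-04 by limma). The place of its probes relative to the deleted exon was not analysed here. Ing2-/- replicate 3 stood apart from its group. Over all 35557 probe sets its mean Pearson r with the other Ing2-/- arrays was 0.983. Each of the other 4 had 0.990 to 0.992 and each Ing2+/+ array had 0.995 with its own group. Probe sets are not independent replicates, so these values describe the arrays and carry no test. Array medians over the same probe sets were 6.41 to 6.45 in Ing2+/+ and 6.46 to 6.53 in Ing2-/- testes. Every member lay above the median of probe sets lacking a single gene symbol on every array, with a lowest member level of 6.67 against medians of 5.61 to 5.74. In RNA from whole testes, fewer cells of a type and less RNA per cell cannot be told apart, and values made comparable by RMA are relative to the other transcripts of the testis.

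Promoters of 29 of the 36 members were in the RefSeq table of GRCm38.p6, without Eqtn, Lyzl1, Izumo4, Clgn, Ly6k, Pcsk4 and Plcz1. The 250 bases before the start were searched on both strands for the palindromic site of CREM (CRE, TGACGTCA), for its shorter core TGACGT, which lies inside CRE, for GTTGCC, the core of the RFX site (X-box) and for the MYB site AACNGTT. CRE stood in 1 of 29 members, Izumo1, and in 1.77% of all 27025 promoters. The core TGACGT stood in 3 members (Acrbp, Lyzl4 and Izumo1) and in 7.29% of all promoters. GTTGCC stood in 5 members (Pick1, Golga3, Acrbp, Spesp1 and Calr3) and in 11.8% of all promoters, and the MYB site in 1 member (Spesp1) and in 4.27%. These counts describe letters in a window and not sites that a factor was seen to bind.

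The promoters below show the members with the full CRE or with 2 of the motifs (Izumo1, Acrbp and Spesp1), the members with the largest measured decreases (Izumo2 and Zp3r), and Tex101, the member whose difference was above 0. They run 5′ to 3′ toward the start of the gene, on the strand of the gene, and capitals mark the motifs. In Izumo1 the CRE begins 96 bases before the start, in Acrbp the core TGACGT begins 18 and the X-box core 199 bases before it, and in Spesp1 the X-box core begins 20 and the MYB site 17 bases before it, with shared letters. On these strands the X-box core reads GGCAAC.
Izumo1 (GRCm38.p6, chr7:45621561-45621810, + strand): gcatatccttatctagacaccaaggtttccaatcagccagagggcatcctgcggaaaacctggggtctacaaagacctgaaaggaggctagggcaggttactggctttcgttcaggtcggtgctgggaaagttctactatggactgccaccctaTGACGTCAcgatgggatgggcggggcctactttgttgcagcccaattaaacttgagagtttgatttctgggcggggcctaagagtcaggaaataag
Acrbp (GRCm38.p6, chr6:125049677-125049926, + strand): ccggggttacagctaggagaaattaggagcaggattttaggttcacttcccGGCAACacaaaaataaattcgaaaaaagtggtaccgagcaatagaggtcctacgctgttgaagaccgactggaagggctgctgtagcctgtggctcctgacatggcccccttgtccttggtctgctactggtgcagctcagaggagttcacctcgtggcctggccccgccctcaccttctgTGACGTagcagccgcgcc
Spesp1 (GRCm38.p6, chr9:62282180-62282429, - strand): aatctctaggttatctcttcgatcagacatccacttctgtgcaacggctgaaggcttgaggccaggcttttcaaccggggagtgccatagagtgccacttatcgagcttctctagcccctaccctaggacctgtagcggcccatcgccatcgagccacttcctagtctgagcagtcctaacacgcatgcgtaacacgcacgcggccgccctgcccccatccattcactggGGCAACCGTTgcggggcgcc
Izumo2 (GRCm38.p6, chr7:44708480-44708729, + strand): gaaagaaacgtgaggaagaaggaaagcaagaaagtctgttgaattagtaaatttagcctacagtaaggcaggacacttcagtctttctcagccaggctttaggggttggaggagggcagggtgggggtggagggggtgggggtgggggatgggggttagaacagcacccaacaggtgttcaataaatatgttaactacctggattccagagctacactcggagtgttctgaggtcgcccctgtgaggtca
Zp3r (GRCm38.p6, chr1:130629607-130629856, - strand): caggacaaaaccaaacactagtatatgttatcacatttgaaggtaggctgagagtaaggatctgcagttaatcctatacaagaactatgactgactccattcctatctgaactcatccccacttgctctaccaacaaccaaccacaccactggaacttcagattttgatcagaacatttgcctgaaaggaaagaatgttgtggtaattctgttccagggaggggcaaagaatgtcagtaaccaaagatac
Tex101 (GRCm38.p6, chr7:24672051-24672300, - strand): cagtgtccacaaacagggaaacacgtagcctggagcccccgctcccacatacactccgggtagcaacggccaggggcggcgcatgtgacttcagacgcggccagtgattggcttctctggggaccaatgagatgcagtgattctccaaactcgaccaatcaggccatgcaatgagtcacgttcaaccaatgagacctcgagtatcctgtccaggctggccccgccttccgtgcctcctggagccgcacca
The windows of Izumo2, Zp3r and Tex101 hold no match, which says only that these letters are not there.

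Transcripts of the acrosome and of sperm-egg interaction were measured at lower levels in Ing2-/- testes for 35 of the 36 members, all but Tex101, where 45.7% of all genes had a difference below 0. The median difference of the members was −0.37, against 0.02 over all genes. For 22 members the 5 Ing2-/- arrays all lay below the 3 Ing2+/+ arrays, which was so for 14.9% of all genes, and for 0 members they all lay above, which was so for 16.7%. Members of 1 testis share their cells, so these counts are a description of the list. No single member passed the adjusted threshold. With all 8 arrays limma called 0 of 36 members lower and 0 higher, against 3.01% of all genes lower and 1.97% higher. The random variance model of the study's methods called 0 members too, against 2.98% of all genes lower. At an unadjusted limma p under 0.05, 21 members were lower and 0 higher, against 13.5% and 16.5% of all genes. At an unadjusted p under 0.001, 0 members passed, against 1.87% of all genes lower. The smallest adjusted p was 0.0519, for Izumo2. The 95% confidence interval of the difference lay wholly below 0 for 21 members and held 0 for 15.

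The members spread widely among the Ing2-/- testes. Ing2-/- replicate 3 was the lowest of the 5 for all 36 members, where it was the lowest for 32.8% of all genes. Ing2-/- replicate 4 was the highest for 23 members, replicate 2 for 7 and replicate 1 for 6. The median over the members of the level minus the Ing2+/+ mean was −0.24, −0.28, −0.84, −0.14 and −0.34 in Ing2-/- replicates 1 to 5, and −0.02, 0.01 and 0.04 in the Ing2+/+ testes. Each of the 5 Ing2-/- testes thus had a median below those of the Ing2+/+ testes, with replicate 3 far from the rest. The SD within Ing2-/- had a median over the members of 0.280 (0.101 to 0.475), against 0.0644 (0.0081 to 0.188) within Ing2+/+, and was the wider for 35 members. Over all genes the median SDs were 0.132 and 0.0718.

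Without Ing2-/- replicate 3, limma called 16 of 36 members lower and 0 higher, against 7.76% of all genes lower. All 16 were free of overlap between the genotypes over all 8 arrays. As replicate 3 was the lowest Ing2-/- array for all 36 members, the remaining arrays alone decide that, so it adds no separate support. Without replicate 3 the median difference of the members was −0.28. With array weights, which give less weight to arrays far from their group and gave replicate 3 the least, 17 members were called lower, against 9.28% of all genes. With all arrays kept, 3 members were called lower among probe sets above the median level (5.92% of all genes), 2 among probe sets with 1 symbol (4.52%) and 4 after a further cyclic loess normalization (4.53%). Differences without replicate 3 are values over 3 and 4 arrays and leave out a mouse that the labels give no reason to leave out.

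**Figure D1:**
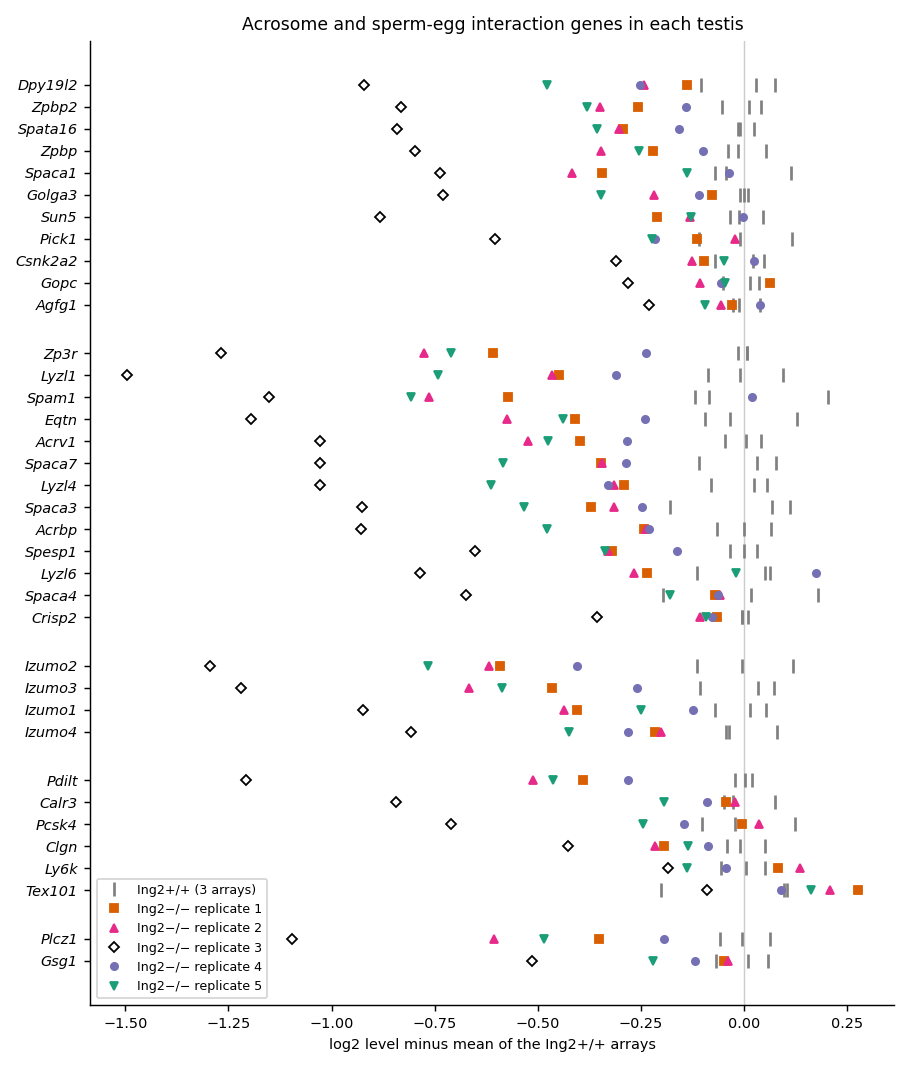
Level of each of the 36 members in each testis, as log2 level minus the average of the 3 Ing2+/+ arrays (horizontal axis), grouped by role and ordered within a role by the difference. Grey ticks are Ing2+/+ arrays and coloured symbols the 5 Ing2-/- arrays, of which replicate 3 (open diamonds) is the lowest of the 5 in every row.

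The members that start the acrosome at the Golgi apparatus had measured differences from −0.07 to −0.30. They were Gopc and Pick1, PDZ proteins of vesicle traffic, Agfg1, needed for the fusion of proacrosomal vesicles, Csnk2a2, a catalytic subunit of casein kinase II, and Golga3, a golgin. Agfg1 had 11.34, 11.28 and 11.29 in the Ing2+/+ mice and 11.28, 11.25, 11.07, 11.34 and 11.21 in the Ing2-/- mice. Its difference was −0.07 (−0.24 to 0.09, 95% interval). Gopc had a difference of −0.09 (−0.27 to 0.10) and Csnk2a2 one of −0.11 (−0.30 to 0.08). For these 3 the arrays of the genotypes overlapped, and the lowest of the 3 intervals reached −0.30. Pick1 (−0.24) overlapped as well. Golga3 had 9.84, 9.85 and 9.83 in the Ing2+/+ mice and 9.76, 9.62, 9.11, 9.73 and 9.49 in the Ing2-/- mice, without overlap, and a difference of −0.30 whose interval (−0.61 to 0.02) reached just above 0.

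Proteins that fix the acrosome to the nucleus and shape the head had measured differences from −0.27 to −0.41. Dpy19l2, the inner nuclear membrane protein that anchors the acrosome and is deleted in many men with round-headed sperm, had 10.46, 10.33 and 10.51 in the Ing2+/+ mice and 10.29, 10.19, 9.51, 10.18 and 9.96 in the Ing2-/- mice. No Ing2-/- testis reached an Ing2+/+ one, and the difference was −0.41 (SE 0.17, adjusted p = 0.155 by limma). Spata16, a Golgi protein also mutated in men with round-headed sperm, had 10.98, 11.02 and 10.98 in the Ing2+/+ mice and 10.70, 10.69, 10.15, 10.83 and 10.64 in the Ing2-/- mice and a difference of −0.39. Zpbp2 and Zpbp, zona-binding proteins of the acrosomal matrix, had differences of −0.39 and −0.34, both without overlap. Spaca1, a protein of the inner acrosomal membrane, was at −0.33, with Ing2-/- replicate 4 (10.55) inside the range of the Ing2+/+ arrays (10.52 to 10.70). Sun5, which joins the head to the tail, was at −0.27, and 4 of its Ing2-/- arrays lay at 9.78 to 9.99 where replicate 3 was at 9.10. Over the 11 genes of formation and head shaping the median was −0.30. Of them 5 did not overlap and were lower (14.9% of all genes), and 4 passed an unadjusted limma p of 0.05 (13.5%). Without replicate 3 the median was −0.19, and limma called 2 of the 11 lower, against 7.76% of all genes. These were Spata16 (−0.28, adjusted p = 0.0267) and Zpbp2 (−0.28, adjusted p = 0.0387).

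The contents of the acrosome had measured differences from −0.14 to −0.72. Of 13 genes for the acrosomal matrix and membrane, 10 did not overlap between the genotypes and were lower (14.9% of all genes). The same number passed an unadjusted limma p of 0.05 (13.5%), and the median was −0.52. Without replicate 3 it was −0.39 and 9 were called lower (7.76% of all genes). Zp3r, a matrix protein named for its binding to the zona protein ZP3, had 10.02, 10.02 and 9.99 in the Ing2+/+ mice and 9.40, 9.23, 8.74, 9.77 and 9.30 in the Ing2-/- mice. The Ing2+/+ testes spanned 0.02, and every Ing2-/- testis was lower, for a difference of −0.72 (SE 0.19, 60.7% of the Ing2+/+ level, adjusted p = 0.0619 by limma). Without replicate 3 it was −0.58 (adjusted p = 0.0204 by limma).

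Spam1, the hyaluronidase PH-20 that opens the cumulus around the egg, had 8.72, 8.43 and 8.39 in the Ing2+/+ mice and 7.94, 7.75, 7.36, 8.53 and 7.71 in the Ing2-/- mice. In 4 of the 5 Ing2-/- testes it lay below all Ing2+/+ testes and in replicate 4 among them. Its difference of −0.66 was not called with replicate 3 (adjusted p = 0.109 by limma) or without it (adjusted p = 0.110). Without replicate 4, the highest array, limma called Spam1, Zp3r and Izumo2 lower, against 3.29% of all genes. Acrv1, the matrix protein SP-10, had 11.18, 11.14 and 11.09 in the Ing2+/+ mice and 10.74, 10.61, 10.11, 10.85 and 10.66 in the Ing2-/- mice. All its Ing2-/- values were below all its Ing2+/+ values, with a difference of −0.54 (adjusted p = 0.0710), and −0.42 (adjusted p = 0.0113 by limma) without replicate 3. Eqtn, a membrane protein that moves to the equatorial segment, had 9.59, 9.43 and 9.37 in the Ing2+/+ mice and 9.05, 8.89, 8.27, 9.22 and 9.02 in the Ing2-/- mice and a difference of −0.57. Spesp1, of the equatorial segment where fusion starts, had 10.01, 10.08 and 10.05 in the Ing2+/+ mice and 9.73, 9.72, 9.40, 9.88 and 9.71 in the Ing2-/- mice. Its Ing2-/- values lay close together for a member of this group, with an SD of 0.178, and its difference was −0.36 (adjusted p = 0.0736 by limma). Acrbp, which binds and holds the precursor of the protease acrosin, had a difference of −0.42, and Spaca7, a secreted matrix protein, one of −0.52, both without overlap.

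The lysozyme-like proteins of the acrosome had measured differences from −0.23 to −0.69. Lyzl1 had 9.26, 9.34 and 9.45 in the Ing2+/+ mice and 8.90, 8.88, 7.85, 9.04 and 8.61 in the Ing2-/- mice. It had the widest Ing2-/- spread of all members (SD 0.475), with no overlap and a difference of −0.69 (adjusted p = 0.110 by limma). Lyzl4 (−0.52) and Spaca3 (−0.48), the sperm lysozyme-like protein, did not overlap either. Lyzl1, Lyzl4 and Spaca3 were all called lower without replicate 3, against 7.76% of all genes. Lyzl6 had 8.85, 9.02 and 9.03 in the Ing2+/+ mice and 8.73, 8.70, 8.18, 9.14 and 8.94 in the Ing2-/- mice. Ing2-/- replicate 4 was the highest of its 8 arrays, and the interval of its difference (−0.23) ran from −0.65 to 0.20. Spaca4, a membrane-anchored protein of the Ly6 family, was at −0.21 and overlapped. Crisp2, a cysteine-rich protein of acrosome and tail, had 12.02, 12.01 and 12.01 in the Ing2+/+ mice and 11.95, 11.91, 11.66, 11.94 and 11.92 in the Ing2-/- mice. All Ing2-/- arrays lay below all Ing2+/+ arrays, and its difference was −0.14 with an interval (−0.32 to 0.04) that held 0, the smallest difference among the members without overlap.

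The Izumo family had 4 of 4 members lower without overlap (14.9% of all genes), all at an unadjusted limma p under 0.05 (13.5%). Their median was −0.53. Izumo1 is the sperm protein that binds Juno on the egg, and Izumo2, Izumo3 and Izumo4 share its Izumo domain. Izumo1 had 9.53, 9.62 and 9.66 in the Ing2+/+ mice and 9.20, 9.17, 8.68, 9.48 and 9.35 in the Ing2-/- mice, or 9.60 ± 0.06 (SD, n = 3) and 9.17 ± 0.30 (SD, n = 5). Its difference was −0.43 (SE 0.16, 74.3% of the Ing2+/+ level, adjusted p = 0.128 by limma). Ing2-/- replicate 4 came closest, 0.05 below the lowest Ing2+/+ testis. Izumo2 had 7.85, 7.96 and 8.09 in the Ing2+/+ mice and 7.38, 7.35, 6.67, 7.56 and 7.20 in the Ing2-/- mice. Its genotypes were 0.29 apart at the nearest, and its difference of −0.74 (SE 0.18, interval −1.14 to −0.33, 60.1% of the Ing2+/+ level) was the largest of all 36 members and the closest to the threshold. Izumo3 had 9.57, 9.74 and 9.71 in the Ing2+/+ mice and 9.21, 9.005, 8.45, 9.41 and 9.09 in the Ing2-/- mice, without overlap, and a difference of −0.64 (adjusted p = 0.0771 by limma). Izumo4 had 9.69, 9.70 and 9.81 in the Ing2+/+ mice and 9.52, 9.53, 8.93, 9.45 and 9.31 in the Ing2-/- mice, also without overlap, and the smallest difference of the 4, −0.39. Without replicate 3, limma called Izumo2 (−0.60, adjusted p = 0.00962), Izumo3 (−0.49, adjusted p = 0.0197) and Izumo4 (−0.28, adjusted p = 0.0400) lower. Over all genes 7.76% were called lower, and Izumo1 (−0.30, adjusted p = 0.0529) stayed just above the threshold.

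**Figure D2:**
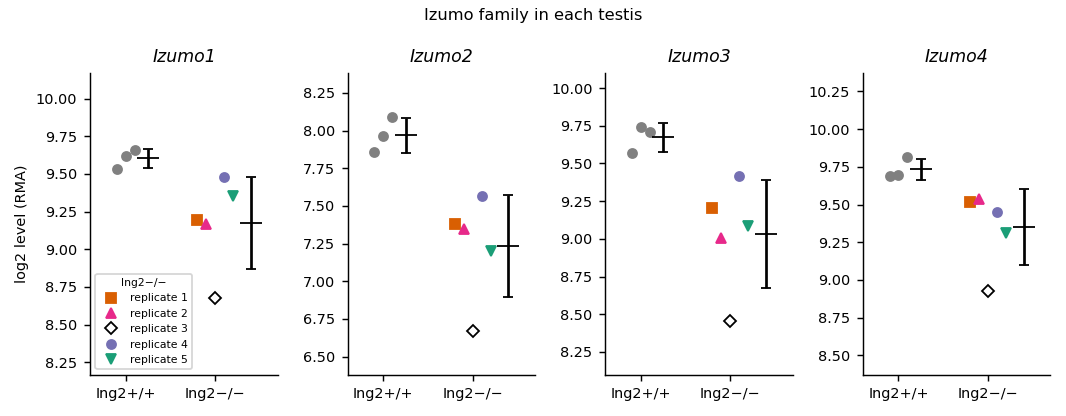
log2 level of the 4 Izumo genes in each testis, with Ing2+/+ in grey and Ing2-/- by replicate; bars give the mean and SD of each genotype, and each panel spans the same range of the log2 scale. In every panel the Ing2-/- testes lie below the Ing2+/+ testes, with replicate 3 lowest.

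Whether relatives differed in their change was tested inside the families, as the difference of 2 members within an array. In the Izumo, Zpbp, Lyzl and Spaca families 16 pairs were compared by exact two-sided permutation over the 56 splits of the arrays into 3 and 5, for which the smallest p is 0.0357. That p was reached by 7 pairs, each with an adjusted p of 0.0816 over the 16, so 0 passed. At that smallest p a pair can pass only if most of the 16 reach it too. The absence of a passing pair thus does not show that relatives change alike. The log2 fold change of Izumo1 minus that of Izumo2 was 0.31, of Izumo1 minus Izumo3 0.21 and of Izumo2 minus Izumo4 −0.35. It was −0.47 for Lyzl1 minus Lyzl6, −0.29 for Lyzl4 minus Lyzl6, −0.27 for Spaca3 minus Spaca4 and 0.31 for Spaca4 minus Spaca7. In these 7 pairs the within-array differences of the genotypes did not overlap, which is what gives the smallest p. The member with the larger measured decrease was Izumo2, Izumo3, Lyzl1, Lyzl4, Spaca3 or Spaca7. Zpbp and Zpbp2 differed in their change by 0.05 (exact permutation p = 0.393), which does not show that they change alike.

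For the maturation of the sperm surface the measured differences ran from −0.57 to 0.13. Clgn (calmegin), Calr3 (calsperin) and Pdilt are testis chaperones of the endoplasmic reticulum known for readying ADAM3, a sperm surface protein. Pdilt had 10.05, 10.07 and 10.03 in the Ing2+/+ mice and 9.66, 9.54, 8.84, 9.77 and 9.58 in the Ing2-/- mice. The genotypes were 0.26 apart at the nearest, with a difference of −0.57 (SE 0.19, adjusted p = 0.0988 by limma), and −0.41 (adjusted p = 0.0108) without replicate 3. Clgn (−0.21) did not overlap, with 11.54, 11.48 and 11.45 in the Ing2+/+ mice and 11.29, 11.27, 11.06, 11.40 and 11.35 in the Ing2-/- mice. Calr3 had 4 Ing2-/- arrays at 9.59 to 9.76, beside 9.73 to 9.86 in Ing2+/+, and replicate 3 at 8.94. Its difference of −0.24 was −0.09 without that array.

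Tex101, a glycolipid-anchored surface protein of germ cells needed for ADAM3, and its partner Ly6k had the only difference above 0 and the one nearest to 0 among the 36 members. Tex101 had 9.09, 9.40 and 9.39 in the Ing2+/+ mice and 9.57, 9.50, 9.20, 9.38 and 9.45 in the Ing2-/- mice. The genotypes overlapped, with the lowest Ing2+/+ array below every Ing2-/- array, and the difference was 0.13 (−0.11 to 0.37). Ly6k had 7.70, 7.76 and 7.81 in the Ing2+/+ mice and 7.84, 7.89, 7.57, 7.71 and 7.62 in the Ing2-/- mice. Its difference of −0.03 had an interval of −0.23 to 0.17, with Ing2-/- replicate 2 the highest of the 8 arrays and replicate 3 the lowest. Pcsk4, a proprotein convertase of the acrosomal membrane, overlapped too and was at −0.21. Over the 6 genes of this role the median was −0.21. Of them 2 did not overlap and were lower (14.9% of all genes), and Pdilt alone was called lower without replicate 3 (7.76%).

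Plcz1, the phospholipase C zeta that starts the calcium waves of the fertilized egg, had 10.66, 10.60 and 10.54 in the Ing2+/+ mice and 10.25, 9.99, 9.50, 10.41 and 10.12 in the Ing2-/- mice. Every Ing2-/- testis was below every Ing2+/+ testis, with a difference of −0.55 (SE 0.18, adjusted p = 0.0969 by limma), and −0.41 (adjusted p = 0.0308) without replicate 3. Gsg1, a germ cell protein known to bind a testis poly(A) polymerase, was at −0.19 and overlapped.

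**Figure D3:**
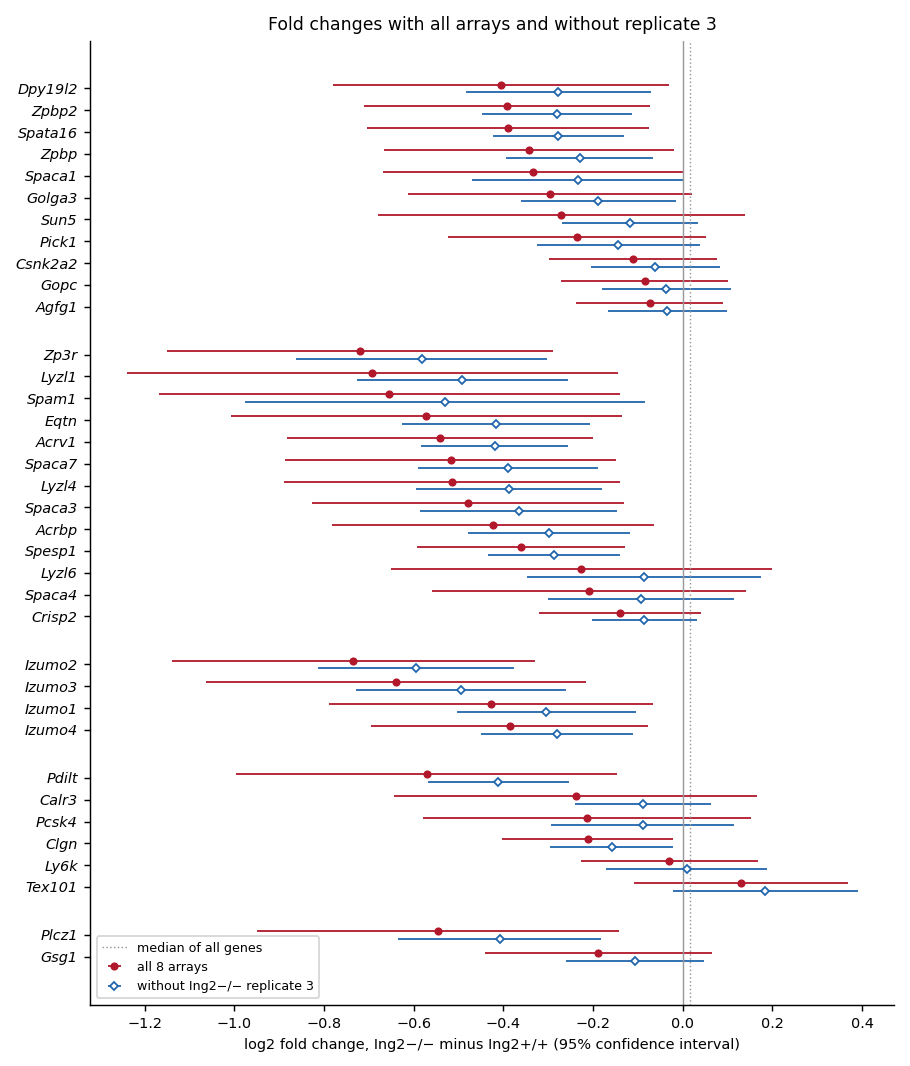
Difference of each member, Ing2-/- minus Ing2+/+ (log2, with 95% confidence interval), over all 8 arrays (filled circles) and without Ing2-/- replicate 3 (open diamonds), by role; the dotted line is the median of all genes. Leaving out the array moves every point to the right and narrows the intervals.

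Of 46 other genes with known roles in acrosome formation, zona binding and gamete fusion, 44 were measured, and Tmem95 and Fimp were not analysed here. Their median was −0.35, 38 were below 0, 28 did not overlap and were lower (14.9% of all genes), and 2, Tpst2 and B4galt1, did not overlap and were higher (16.7%). Limma called 2 lower, near the 3.01% of all genes, and 0 higher (1.97%), with 22 lower and 0 higher at an unadjusted p under 0.05 (13.5% and 16.5%). Prss21 (testisin), a serine protease of the sperm surface, fell by 1.01 on the log2 scale (SE 0.21, adjusted p = 0.0373 by limma). It had 9.83, 9.90 and 10.12 in the Ing2+/+ mice and 9.38, 9.17, 8.34, 9.03 and 8.78 in the Ing2-/- mice. Spaca6, which gamete fusion requires, fell by 0.53 (SE 0.11, adjusted p = 0.0390), with 8.54, 8.62 and 8.62 in the Ing2+/+ mice and 8.18, 8.11, 7.74, 8.26 and 8.04 in the Ing2-/- mice. In both, no Ing2-/- testis reached an Ing2+/+ one. The count moved with single arrays. It was 19 without Ing2-/- replicate 3 (7.76% of all genes), 4 without replicate 4 (3.29%) and 1 without replicate 1 (1.71%). It was 0 without Ing2-/- replicate 2 (1.74%) or 5 (0.868%) or any 1 of the Ing2+/+ arrays, where the share of all genes called lower was itself 0.221%, 0.181% and 0.582%.

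Spermatid markers had differences below 0 as well, and Sertoli cell, Leydig cell and macrophage markers had differences above 0. The 14 round spermatid markers, such as Catsper1 and Tssk6, had differences from −0.74 to −0.25. Of them 12 did not overlap and were lower (14.9% of all genes), and limma called 1, Catsper1, lower (3.01%). Their median level relative to Ing2+/+ was −0.29, −0.30, −1.003, −0.22 and −0.38 in Ing2-/- replicates 1 to 5, close to the values of the members above. The 14 markers of elongating spermatids, such as the protamines and Akap4, had a median difference of −0.21 and were at −0.57 in replicate 3. The 10 of pachytene spermatocytes had −0.19 and the 13 of spermatogonia 0.08. Of the pachytene markers 5 did not overlap and were lower (14.9% of all genes), and 1, Hspa2, was called lower (3.01%). Of the spermatogonia markers 5 were higher without overlap (16.7%), 1 was lower without overlap (14.9%) and 1, Sohlh2, was called lower (3.01%). The 20 Sertoli cell markers went the other way from the spermatid markers, with a median difference of 0.59. Of them 17 were higher without overlap (16.7% of all genes) and 1 was called higher (1.97%). Their median was 1.23 above Ing2+/+ in replicate 3 and 0.34 to 0.58 above it in the other 4 Ing2-/- testes. Of 7 Leydig cell markers 5 were called higher (median 0.60), against 1.97% of all genes. Of 9 macrophage markers 0 were called (median 0.38), and 5 were higher at an unadjusted limma p under 0.05, against 16.5% of all genes. Testes of both genotypes held the germ cell transcripts of the labelled tissue, such as Prm1 at 11.06 to 11.56 over the 8 arrays. Of 7 epididymis markers, Adam7 was at 6.80 in Ing2-/- replicate 4 and 5.31 in replicate 2 against 4.16 to 4.62 in the other 6 arrays. Rnase9 was at 4.89 in replicate 4 against 3.71 to 3.95 in the other 7 arrays, and Crisp4 at 4.11 against 3.55 to 3.74. Lcn5 was highest in that array too, at 5.82 beside 5.81 in replicate 5, and the other 3 were not. The list had a median difference of 0.0029. Replicate 4 is the array that was highest among the Ing2-/- testes for 23 members, and the part of epididymis transcripts in its levels was not tested. The part of these cell types in the members' differences was not tested by a count of cells.

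**Figure D4:**
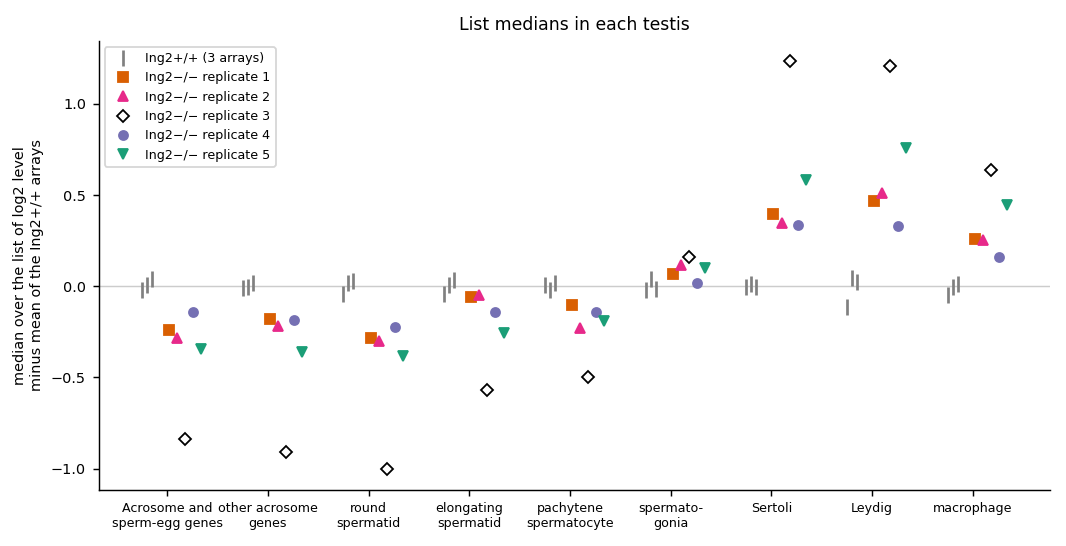
Median over each gene list of the log2 level minus the Ing2+/+ mean, in each testis; grey ticks are Ing2+/+ arrays. Replicate 3 of Ing2-/- (open diamonds) is lowest in the acrosome, spermatid and spermatocyte lists and highest in the Sertoli, Leydig and macrophage lists.

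Measured against the median level of the pooled spermatid markers, the differences of the members centred near 0. When every array was shifted so that the 28 spermatid markers, none of them a member, had an equal median, the median difference of the members was 0.01, and that of all genes 0.40. It was −0.06 for the round spermatid markers and 0.17 for the elongating spermatid markers, so the members lay between these lists. On that scale limma called 0 members. At an unadjusted p under 0.05, Izumo2 (−0.35) and Zp3r (−0.34) were lower and Tex101 (0.51) and Ly6k (0.35) higher, against 1.63% of all genes lower and 50.3% higher. With an equal median of the Sertoli cell markers the median of the members was −0.99, that of all genes −0.60, and 35 members were called lower, against 76.1% of all genes. These scalings move every gene by the same amount, 0.38 and −0.62 on the log2 scale, and keep the order of the members. The sign on the spermatid scale therefore only says whether a decrease was larger than 0.38. That value equalizes the median level of the markers and is not the median of their differences. The difference stayed below 0 on all 3 scales for 18 members, from Izumo2 and Zp3r to Spata16 (−0.0070) and Izumo4 (−0.0031).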

How the data were processed

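Total RNA was extracted with Trizol from whole testes of 3 Ing2+/+ and 5 Ing2-/- mice, not pooled, and hybridized to Affymetrix Mouse Gene ST arrays. The authors deposited log2 values per probe set, made by RMA with Affymetrix Expression Console. Names came from the platform annotation, with 21698 of 21789 single symbols looked up by gene identifier in the RefSeq table of GRCm38.p6. The brightest probe set stood for a gene. No column of values was left out.

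The genotype comparison used lmFit and eBayes of limma 3.58.1 (R 4.3.3) without a covariate, with 2.85 prior degrees of freedom, and families were compared by exact permutation with scipy 1.17.1 in Python 3.11.15. Figures were drawn with matplotlib 3.10.9. Fits were tested on simulated data. With 8 arrays precision is limited. A limma p-value judges a genotype difference against the spread between these mice, moderated across probe sets. A permutation p-value ranks a difference among the splits of the arrays. Named genes were every member, Ing2, and the called genes among other acrosome and sperm-egg interaction genes. Genes outside that rule were named as examples after their values were seen. The members, lists and motifs were chosen with earlier results of these data known. Alternatives were a replicate block, each array left out, filters, cyclic loess, shifts to marker medians, the random variance model of the methods, other variance estimates, array weights, the mean of a gene's probe sets, and other thresholds. The other two-sided statistic for pairs and pairs with an array left out were added after seeing the data.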

Additional observations from a re-analysis of the deposited data

Results flagged for a closer look

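In 5 of the 36 members Ing2-/- replicate 3 lay far below the other Ing2-/- testes, by a gap that exceeded 0.71 of the group's range, the critical value of Dixon's test for 5 samples. Its log2 level was 9.10 for Sun5, 8.23 for Spaca4, 11.66 for Crisp2, 8.94 for Calr3 and 8.84 for Pdilt. Chance flags about 1 in 20 groups, and over all genes 10.7% were past that value, low or high. The members of 1 testis share their cells and are not independent flags. Groups of 3 were not tested. The cause was not tested.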

How the results depend on the processing

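Limma called 0 members lower with all arrays (3.01% of all genes), and 0 to 16 with 1 array left out. It called 16 without Ing2-/- replicate 3 (7.76%) and 3 without replicate 4 (3.29%). It called 3 among probe sets above the median level (5.92% of all genes), 2 among probe sets with 1 symbol (4.52%, near the share of members), 4 after cyclic loess (4.53%), 17 with array weights (9.28%) and 35 with an equal median of Sertoli cell markers (76.1%). The other alternatives called 0 lower, and each alternative called 0 higher. The members' median of −0.37 ran from −0.41 to −0.28 with 1 array left out, and was −0.99 and 0.0098 with equal medians of Sertoli cell and of spermatid markers. Of the other acrosome genes 2 were called lower with all arrays (3.01% of all genes), and 0 to 19 with 1 array left out. The count was 5 above the median level (5.92%), 4 with 1 symbol (4.52%) and 5 after cyclic loess (4.53%). It was 18 with array weights (9.28%), 42 with Sertoli medians (76.1%) and 0 with spermatid medians. It was also 0 with unmoderated variances, at an unadjusted p under 0.001 or with a minimum change of 1.5-fold. The median of the other acrosome genes, −0.35, ran from −0.41 to −0.23, and was −0.97 and 0.0313 with Sertoli and spermatid medians.

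An equal median of spermatid markers adds 0.38 to every gene, so the 17 members with a smaller decrease than that came out above 0 by construction: Gopc 0.30, Agfg1 0.31, Pick1 0.15, Csnk2a2 0.27, Golga3 0.0867, Sun5 0.11, Zpbp 0.0393, Spaca1 0.0487, Spaca4 0.17, Spesp1 0.0227, Lyzl6 0.16, Crisp2 0.24, Clgn 0.17, Calr3 0.14, Ly6k 0.35, Pcsk4 0.17 and Gsg1 0.19. Tex101 turned to −0.49 with Sertoli medians. With 1 array left out, Ly6k ran from −0.071 to 0.0089 (above 0 without Ing2-/- replicate 3), Spaca1 minus Spaca4 from −0.2497 to 0.03 (above 0 without Ing2+/+ replicate 1) and Izumo1 minus Izumo4 from −0.0965 to 0.0066 (above 0 without Ing2-/- replicate 2).

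The labels do not say whether replicate numbers pair the mice. Deviations of same-numbered arrays correlated at −0.057, 0.184 and 0.006, and those of differently numbered arrays at −0.113 to 0.144. These few values do not settle it. With the replicate number as a block, which leaves numbers 1 to 3 to carry the comparison, 0 members and 0 of the other acrosome genes were called, as were 0 of all genes, the members' median was −0.44, and Ly6k turned to 0.0113. For pairs of relatives the smallest adjusted p was 0.0952 with the absolute difference as the statistic, and 0 passed. Without Ing2-/- replicate 3 the smallest adjusted p was 0.131. There the fewer splits allow no exact permutation p under 0.0571, so no pair could pass and that outcome decides nothing. The causes of these shifts were not tested beyond what the alternatives change.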
